A study of Mus musculus with 10 samples.

Results

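The glycerolipid acyltransferases and lipins carry out the successive steps by which a cell builds triglyceride from glycerol 3-phosphate and acyl-CoA. The group described here held 10 genes, taken by symbol from a table of 20295 gene models: Gpam, Agpat6 and Agpat9 for the first acylation, Agpat1, Agpat2 and Agpat3 for the second, Lpin1 and Lpin2 for the phosphatase step, and Dgat1 and Dgat2 for the last acylation. Their reads were counted in poly-A RNA from interscapular brown adipose tissue, fat that burns fuel to make heat. Each of the 10 libraries is 1 male C57BL/6JBomTac mouse, 8 weeks old, single-housed and fed chow. The count columns of all 10 are headed WT (wild type), and no genetic modification is named. Control mice (5) stayed at 22 °C and cold mice (5) spent 3 days at 4 °C. The question for each gene is whether its transcript level differs between these groups.

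In the glycerol phosphate pathway, a glycerol-3-phosphate acyltransferase (GPAT) adds a fatty acid to make lysophosphatidic acid, and an acylglycerolphosphate acyltransferase (AGPAT) adds another to make phosphatidic acid. A lipin removes the phosphate to give diacylglycerol, and a diacylglycerol acyltransferase (DGAT) makes triglyceride. Phosphatidic acid and diacylglycerol also feed phospholipid synthesis. In brown fat, triglyceride droplets are both the fuel store of heat production and are rebuilt while fuel is being burned. The symbols Agpat6 and Agpat9 are older names of GPAT enzymes of the endoplasmic reticulum, whereas Gpam encodes the GPAT of the outer mitochondrial membrane.

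Levels are normalised read counts (CPM, a gene's share of the library's reads, scaled by the TMM method). Changes are log2 fold changes, cold minus control, and SE is their standard error. Adjusted p-values are from edgeR's quasi-likelihood test, corrected over the 11229 genes tested, with a threshold of 0.05. Library totals were 4446163 to 5776905 counts in control and 5676963 to 6923932 in cold libraries. Control replicate 2 and cold replicate 5 stood apart from their groups on the second principal component of all genes, at -36.5 and -23.5 against -0.88 to 23.7 in the other 8 libraries. Values without these libraries are given where they matter. The summed brown adipocyte markers, Ucp1 among them, were at 13623 to 16845 CPM in control and 23373 to 27166 CPM in cold libraries. Of these 12 markers 3 were higher and 1 lower, and their median log2 fold change was -0.01. The summed adipocyte markers were at 18720.2 to 27911 and 26301 to 29077 CPM, with 1 of 7 higher and 1 lower (median -0.06). Macrophage markers summed to 89.4 to 199 and 66.3 to 341 CPM (1 of 6 tested higher) and fibroblast markers to 340 to 488 and 226 to 721 CPM (0 of 5 called). Endothelial markers summed to 558 to 841 and 699 to 857 CPM, with 2 of 6 higher. Skeletal muscle markers were at 5.96 to 88.9 CPM in control libraries and reached 364 and 256 CPM in cold replicates 2 and 3 against 7.65 to 12.3 CPM in the other cold libraries. Red blood cell markers summed to 8.58 to 18.6 and 14.9 to 44.5 CPM, with the 1 marker tested higher. Of the markers listed, Hoxc9 (white adipocytes) and Th (nerve) had no count in any library. White adipocyte markers summed to 50.1 to 176 and 27.8 to 126 CPM (1 of 5 tested higher). Smooth muscle (71.8 to 283 and 115 to 223 CPM) and nerve markers (121 to 206 and 148 to 243 CPM) had 0 of 4 called each, and lymphocyte markers, all too low to be tested, summed to 1.65 to 2.98 CPM in control libraries. In whole tissue, a change in the share of a cell type and a change in RNA per cell cannot be told apart, and the part of these cell types in the results below was not tested.

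Of the 10 genes, all of which were tested, 4 rose and 1 fell in the cold. Gpam, Agpat1, Agpat3 and Lpin2 rose, and Dgat2 fell. Over all tested genes 10.2% rose and 9.16% fell, together 19.3%. For these same 5 genes no cold library lay within the control range, 4 genes lying above it and 1 below. That held for 7.39% (above) and 6.58% (below) of all tested genes, together 14%. The median log2 fold change of the 10 genes was 0.08 against -0.02 over all tested genes, and the median size of the change regardless of sign was 0.48 against 0.22. In each of the 4 steps at least 1 gene was called and at least 1 was not. The authors' deposited table, with 10.7% of its genes higher and 9.07% lower at an adjusted p under 0.05 (together 19.8%), also gives 5 of the 10 under that value. The plot of changes with their confidence intervals shows the 10 genes beside the spread of all tested genes.

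**Figure D1:**
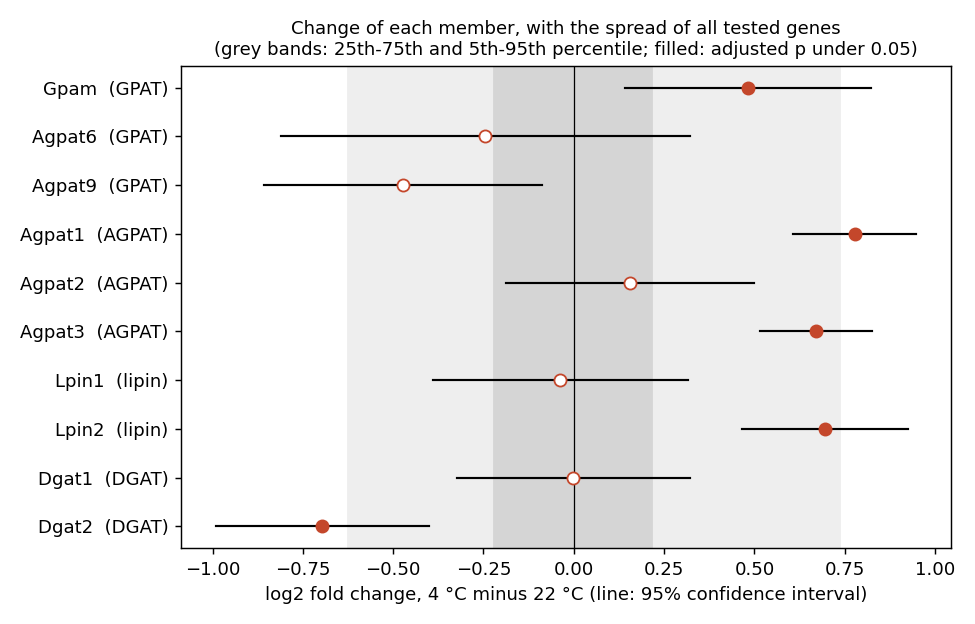
Log2 fold change of each of the 10 genes, 4 °C minus 22 °C, with its 95% confidence interval (line), over bands for the 25th to 75th and 5th to 95th percentile of all tested genes. Filled points had an adjusted p under 0.05: Gpam, Agpat1, Agpat3 and Lpin2 lie to the right of zero and Dgat2 to the left.

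The windows around the annotated starts of the 4 genes that were called higher in the cold are shown. Of the 10 genes, 7 matched a promoter window of RefSeq (build GRCm38.p6) by gene ID. Dgat1, Dgat2 and Agpat6 had no match. Each window is 300 bases, from 250 before the start to 50 after it, in the direction of transcription. Where a gene had several windows, the one nearest to the start of the counted transcript was taken, 0 bases from it for Agpat1, Agpat3 and Lpin2 and 26 bases for Gpam. Capitals mark matches, on either strand, to 6 motifs: the GC box GGGCGG, the CCAAT box, the E-box CACGTG, the cyclic AMP response half-site TGACG, the nuclear receptor half-site AGGTCA and the sterol response motif TCACNCCAC. No matches of different motifs overlapped in these 4 windows.
Gpam, chr19:55099428-55099727, minus strand: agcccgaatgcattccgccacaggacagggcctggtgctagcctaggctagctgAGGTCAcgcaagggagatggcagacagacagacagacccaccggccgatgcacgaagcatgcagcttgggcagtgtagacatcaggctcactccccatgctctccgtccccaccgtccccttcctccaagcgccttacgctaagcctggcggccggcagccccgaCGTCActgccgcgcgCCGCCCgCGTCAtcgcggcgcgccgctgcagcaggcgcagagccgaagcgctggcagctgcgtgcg
Agpat1, chr17:34605611-34605910, plus strand: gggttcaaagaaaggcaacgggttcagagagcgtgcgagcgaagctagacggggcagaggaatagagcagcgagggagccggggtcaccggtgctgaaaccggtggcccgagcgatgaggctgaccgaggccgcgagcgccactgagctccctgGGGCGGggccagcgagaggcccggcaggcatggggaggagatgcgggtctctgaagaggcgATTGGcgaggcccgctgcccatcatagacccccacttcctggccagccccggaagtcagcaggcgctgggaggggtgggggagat
Agpat3, chr10:78351651-78351950, minus strand: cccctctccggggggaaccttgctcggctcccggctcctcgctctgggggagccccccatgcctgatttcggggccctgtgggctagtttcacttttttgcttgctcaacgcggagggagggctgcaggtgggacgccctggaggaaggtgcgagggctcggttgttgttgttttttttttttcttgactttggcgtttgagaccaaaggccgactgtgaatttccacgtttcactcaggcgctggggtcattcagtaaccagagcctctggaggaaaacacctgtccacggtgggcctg
Lpin2, chr17:71183728-71184027, plus strand: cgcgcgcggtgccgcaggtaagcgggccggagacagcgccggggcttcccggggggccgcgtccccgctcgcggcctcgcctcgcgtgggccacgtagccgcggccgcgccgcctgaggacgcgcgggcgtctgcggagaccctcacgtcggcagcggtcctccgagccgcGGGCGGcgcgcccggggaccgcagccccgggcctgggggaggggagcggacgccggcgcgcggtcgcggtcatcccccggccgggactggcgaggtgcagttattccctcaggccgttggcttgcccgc

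The 4 windows shared no motif of the 6. The GC box was found once each in Gpam, Agpat1 and Lpin2, and it is present in 35.7% of all 32851 promoter windows. Gpam held 2 cyclic AMP response half-sites (in 20.8% of all windows) and 1 nuclear receptor half-site (16.3%). Agpat1 held 1 CCAAT box (37.4%). The Agpat3 window held none of the 6 motifs, and the E-box (7.15% of all windows) and the sterol response motif (1.24%) were in none of the 4. The share of G and C was 59% in Agpat3, 68% in Gpam and in Agpat1, and 80.7% in Lpin2. Of the motifs found in these 4 windows, all but the CCAAT box also occurred in members that were not called. The Agpat9 and Agpat2 windows held 3 GC boxes each, and Agpat9 also 1 cyclic AMP response half-site. Lpin1, whose window lay 21193 bases from the counted start, held 1 nuclear receptor half-site. Whether any of the motifs listed sets the 4 genes apart was not tested. A match or its absence describes only the letters of the window.

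Within the first acylation step, Gpam rose while the endoplasmic reticulum enzymes Agpat6 and Agpat9 had negative values that did not pass the test. Gpam (NM_008149, chromosome 19, 55144224 to 55173937 in build mm9, minus strand) was at 662, 483, 653, 408 and 561 CPM in control replicates 1 to 5 and at 674, 704, 739, 676 and 1071 CPM in cold replicates 1 to 5. The lowest cold library lay just above the highest control library, and cold replicate 5 lay well above the other cold libraries. The mean went from 553 ± 109 to 773 ± 169 CPM (SD, n = 5 each), and the log2 fold change was 0.48 (SE 0.16, adjusted p = 0.0476 in edgeR's quasi-likelihood test). The call lay near the threshold. Of 10 fits that each left out 1 library, 8 did not call Gpam, and those without control replicate 1 or 3 did. Over these fits the value lay between 0.33 (without cold replicate 5) and 0.55, with an adjusted p of 0.0332 to 0.103.

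Agpat6 (NM_018743, chromosome 8, 24283418 to 24318925, minus strand), the abundant GPAT of the endoplasmic reticulum, was the member that varied most among control mice. It was at 316, 1190.0, 681, 779 and 678 CPM in control replicates 1 to 5, a 3.77-fold span between the lowest and the highest. In the cold it was at 524, 541, 593, 551 and 867 CPM. Every cold library lay inside the range of the controls. Its log2 fold change over all 10 libraries was -0.24 (SE 0.26, adjusted p = 0.546, 95% confidence interval -0.81 to 0.32). Single control libraries moved this value, to -0.44 without control replicate 1 and to -0.00063 without control replicate 2.

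Agpat9 (NM_172715, chromosome 5, 101275248 to 101328121, plus strand), the other GPAT of the endoplasmic reticulum, was low in this tissue, with 50 to 123 counts per library. It was at 13.8, 15.3, 19.5, 19.9997 and 25.3 CPM in control and at 13.7, 14.6, 15.1, 14.7 and 9.33 CPM in cold libraries. Cold replicates 1 and 5 lay below every control and the other 3 lay within the lower part of the control range. For Agpat9 the log2 fold change was -0.47 (SE 0.18, adjusted p = 0.0799). It passed the threshold without control replicate 1 (-0.57, adjusted p = 0.0356) or control replicate 2 (-0.54, adjusted p = 0.0461).

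The second acylation step held the clearest rises. Agpat1 (NM_001163379, chromosome 17, 34742806 to 34750394, plus strand), an enzyme of the endoplasmic reticulum found in most tissues, was at 113, 119, 133, 132 and 135 CPM in control replicates 1 to 5. In the cold it was at 209, 196, 232, 223 and 224 CPM. The 2 groups were far apart compared with the spread inside either one. Its mean went from 126 ± 9.76 to 217 ± 14.2 CPM (SD, n = 5 each), a 1.71-fold rise (log2 fold change 0.78, SE 0.08, adjusted p = 4.19e-05), the smallest p of the 10 genes. The Agpat1 model overlaps 100 bases of Egfl8 on the opposite strand. Egfl8 had 1.38 ± 0.667 CPM at 22 °C and 1.53 ± 0.353 CPM at 4 °C (SD, n = 5 each). No other member overlapped another gene model of the table.

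Agpat3 (NM_053014, chromosome 10, 77734308 to 77814445, minus strand), an acyltransferase of phospholipid and triglyceride synthesis, showed a similar separation at a higher level. It was at 648, 601, 684, 593 and 614 CPM in control and at 975, 947, 1041, 967 and 1064 CPM in cold libraries. The lowest cold library lay far above the highest control library. On the log2 scale Agpat3 rose by 0.67 (SE 0.07, adjusted p = 5.80e-05). In cold replicates 2 and 3, which held the muscle transcripts, Agpat1 was lowest and highest of the cold group, and Agpat3 was lowest and second highest, still clear of every control.

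Agpat2 (NM_026212, chromosome 2, 26448577 to 26459937, minus strand), whose loss causes lipodystrophy in humans and mice, was abundant in both groups. It was at 3519, 1720.2, 3171, 2652 and 3188 CPM in control and at 3504, 3023, 3382, 3258 and 2708 CPM in cold libraries. Control replicate 2 was the lowest of all 10 libraries and the groups overlapped almost completely. Its log2 fold change was 0.16 (SE 0.16, adjusted p = 0.526, 95% confidence interval -0.19 to 0.50), and without control replicate 2 it was 0.02.

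Lipins are phosphatidate phosphatases that also act with transcription factors in the nucleus. Lpin1 (NM_172950, chromosome 12, 16542475 to 16596576, minus strand), the main lipin of fat and muscle, was at 1112, 586, 641, 647 and 774 CPM in control and at 766, 717, 745, 576 and 861 CPM in cold libraries. Control replicate 1 was the highest of all, and the other 9 libraries were mixed. The log2 fold change was -0.04 (SE 0.16, adjusted p = 0.895, 95% confidence interval -0.39 to 0.32), and its sign turned without control replicate 1 (0.14) or cold replicate 4 (0.04).

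Lpin2 (NM_022882, chromosome 17, 71533318 to 71599158, plus strand) was low, with 74 to 180 counts per library, and rose. It was at 18.3, 15.3, 18.6, 14.1 and 15.2 CPM in control replicates 1 to 5 and at 25.9, 26.5, 25.6, 25.2 and 28.6 CPM in cold replicates 1 to 5. All cold libraries lay above all controls, with a gap wider than the range of the cold group. Its log2 fold change was 0.70 (SE 0.11, adjusted p = 0.000773), a 1.62-fold rise.

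The last acylation is made by enzymes of unrelated families, DGAT1, a membrane-bound O-acyltransferase, and DGAT2. Dgat2 (NM_026384, chromosome 7, 106302173 to 106331223, minus strand) was the member that fell. It was at 2002, 3663, 2619, 3089.7 and 3029 CPM in control replicates 1 to 5 and at 1674, 1655, 1972, 1656 and 1935 CPM in cold replicates 1 to 5. The highest cold library lay just under the lowest control, replicate 1, while the other 4 controls were well above. The mean went from 2881 ± 616 to 1778 ± 161 CPM (SD, n = 5 each), and Dgat2 fell by 0.70 on the log2 scale (SE 0.14, adjusted p = 0.00375). Leaving out control replicate 2 gave -0.60 and leaving out control replicate 1 gave -0.81, and Dgat2 passed the threshold in all 10 fits that left out 1 library.

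Dgat1 (NM_010046, chromosome 15, 76332445 to 76342248, minus strand) was at 247, 465, 273, 334 and 349 CPM in control and at 336, 306, 400.2, 318 and 307 CPM in cold libraries. All cold values lay within the control range. Its log2 fold change was -0.0018 (SE 0.15, adjusted p = 0.994, 95% confidence interval -0.32 to 0.32).

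**Figure D2:**
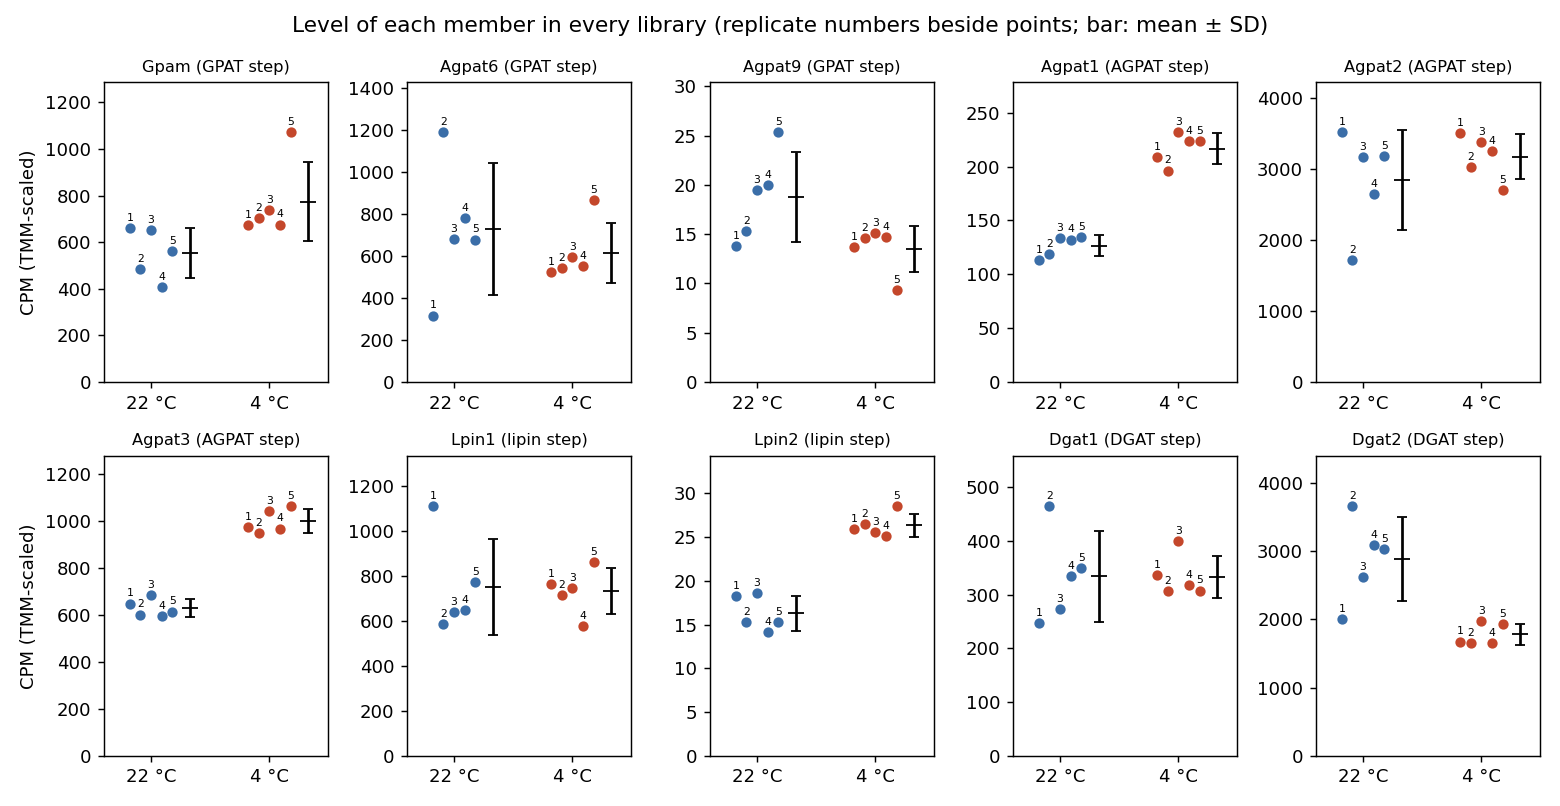
CPM of each of the 10 genes in every library at 22 °C (blue) and 4 °C (red), with replicate numbers beside the points and mean ± SD as a bar. Agpat1, Agpat3 and Lpin2 are separated between groups, Dgat2 is lower at 4 °C, and Gpam separates narrowly (662 against 674 CPM).

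To ask whether members of one step changed by different amounts, the log2 ratio of their counts was taken within each library, for 6 pairs. Gpam with Agpat9 and Agpat2 with Agpat3 were not compared. The ratios were compared between groups by a two-sided exact permutation test, with p adjusted over the 6 pairs. The smallest p this design allows is 0.00794 before adjustment. The balance shifted away from Dgat2 and away from Lpin1. Counts of Dgat2 per count of Dgat1 were 8.11, 7.88, 9.58, 9.26 and 8.67 in control replicates 1 to 5 and 4.99, 5.41, 4.93, 5.21 and 6.30 in cold replicates 1 to 5. The groups did not overlap, and the control spread of this ratio was small although Dgat1 and Dgat2 themselves varied widely among controls. The log2 ratio fell by 0.70 (SE 0.08, two-sided exact permutation p = 0.00794, adjusted p = 0.0238), and was lower in 5 of 5 cold libraries than in any control.

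Counts of Lpin1 per count of Lpin2 were 60.8, 38.4, 34.5, 45.8 and 50.8 in control and 29.6, 27.0, 29.1, 22.9 and 30.2 in cold libraries. Again every cold library lay below every control. The log2 ratio fell by 0.71 (SE 0.16, two-sided exact permutation p = 0.00794, adjusted p = 0.0238). In both pairs 1 gene of the pair was called and the other was not.

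The other 4 pairs did not pass the adjusted test. Agpat2 per Agpat1 went from 22.6 ± 6.08 to 14.7 ± 1.70 counts per count (SD, n = 5 each), a log2 difference of -0.59 (SE 0.20, exact permutation p = 0.0397, adjusted p = 0.0794). Only control replicate 2, at 14.5, lay within the range of the cold libraries, and without it the difference was -0.74 (adjusted exact permutation p = 0.0159). Leaving out the only library that overlapped set the groups apart. That exact p was therefore bound to be the smallest possible (0.00794 before adjustment) and adds no support. Agpat3 per Agpat1 differed by -0.11 (SE 0.07, adjusted exact permutation p = 0.226), and Agpat9 per Agpat6 by -0.31 (SE 0.40, adjusted exact permutation p = 0.429).

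The ratio of Gpam to Agpat6 differed by 0.63 (SE 0.41, adjusted exact permutation p = 0.248), with a very unequal spread. It was 2.09, 0.41, 0.96, 0.52 and 0.83 in control replicates 1 to 5 and 1.29, 1.30, 1.24, 1.23 and 1.24 in cold replicates 1 to 5. The cold libraries thus held nearly the same balance of these GPAT transcripts, cold replicate 5 included, in which both genes were at their highest of the group. Control replicate 1 lay above all cold libraries and the other 4 controls lay below them. Without control replicate 1 the difference was 0.97 (adjusted exact permutation p = 0.0159). Leaving out the only control above the cold libraries set the groups apart. That exact p was therefore bound to be the smallest possible (0.00794 before adjustment) and adds no support. No other single library brought the difference past the threshold.

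**Figure D3:**
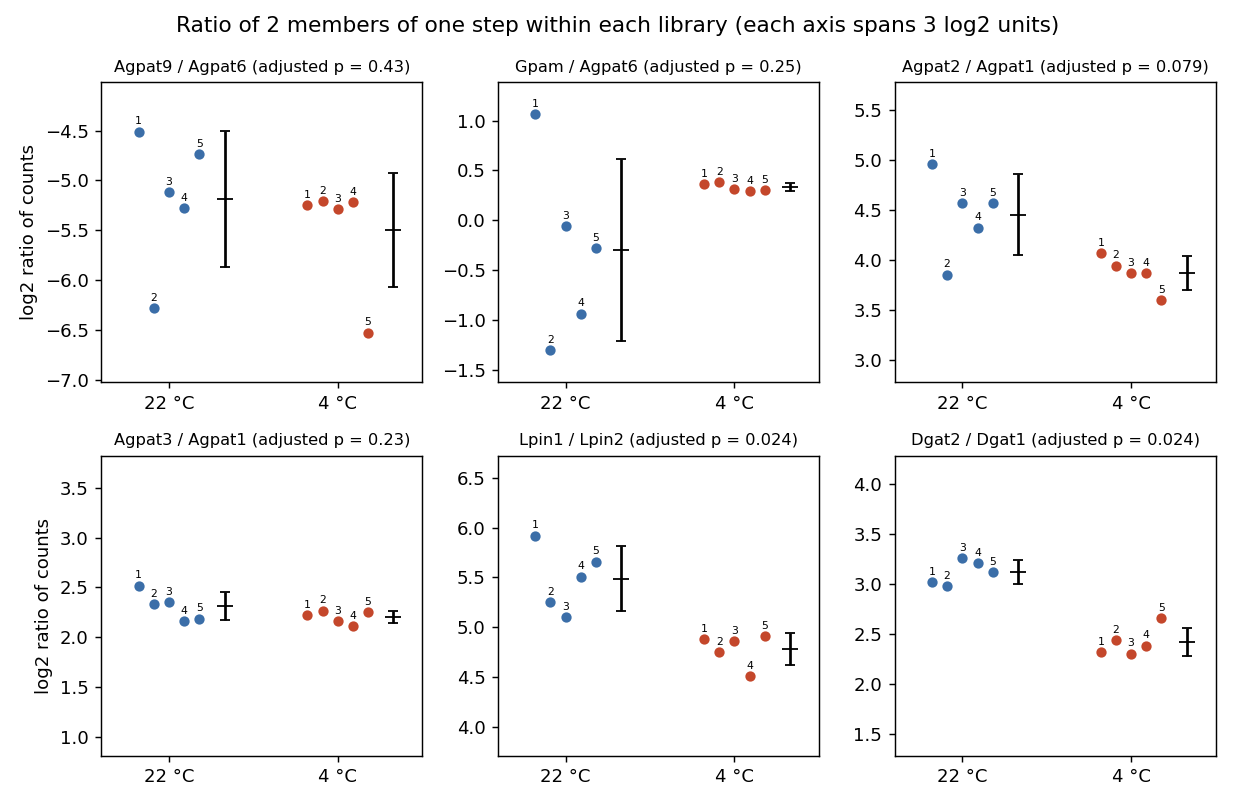
Log2 ratio of the counts of 2 members of one step in each library, at 22 °C (blue) and 4 °C (red), with mean ± SD as a bar and every axis spanning 3 log2 units. Lpin1/Lpin2 and Dgat2/Dgat1 are lower in every cold library, and Gpam/Agpat6 spans -1.30 to 1.07 in control but 0.29 to 0.38 in cold libraries.

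Levels of different genes were compared per length, as CPM per kilobase of counted bases (RPKM). In control libraries Agpat2 (1811 ± 447 RPKM) and Dgat2 (1279.7 ± 274) led, and their libraries overlapped. Dgat1 (190.1 ± 48.2), Agpat6 (185 ± 79.2), Agpat3 (183 ± 10.9), Gpam (145 ± 28.5) and Lpin1 (137 ± 38.8) followed, each overlapping the next in the order. Agpat1 (60.5 ± 4.67), Agpat9 (6.52 ± 1.58) and Lpin2 (2.89 ± 0.355) came last, each separated from its neighbours. Averaged over all libraries, the other 8 genes were between the 91.9 percentile (Agpat1) and the 99.8 percentile (Agpat2) of tested genes, and Agpat9 and Lpin2 were at the 38.0 and 27.9 percentile.

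In the cold, Agpat2 (2017 ± 201 RPKM) and Dgat2 (790.04 ± 71.4) no longer overlapped. Agpat3 (290.4 ± 14.7) was the third, above Gpam (202 ± 44.1), Dgat1 (189.9 ± 22.4), Agpat6 (156 ± 36.3), Lpin1 (134 ± 18.8) and Agpat1 (104 ± 6.78). Neighbours in this middle group overlapped, as did Agpat9 (4.69 ± 0.825) and Lpin2 (4.67 ± 0.236). Shares of a step were taken over the 10 genes only. They leave out relatives such as Lpin3 (1.86 RPKM in control and 2.20 in cold libraries) and Agpat5 (7.57 and 11.4 RPKM). Within the DGAT step, Dgat2 made up 87.1 ± 0.936% of the summed RPKM in control and 80.6 ± 1.499% in cold libraries. Within the second acylation step Agpat2 made up 87.6 ± 3.02% and 83.6 ± 1.80%, and within the lipin step Lpin1 made up 97.9 ± 0.464% and 96.6 ± 0.391% (SD, n = 5 each). Gpam made up 44.8 ± 14.7% of the 3 GPAT members in control and 55.7 ± 0.593% in cold libraries.

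**Figure D4:**
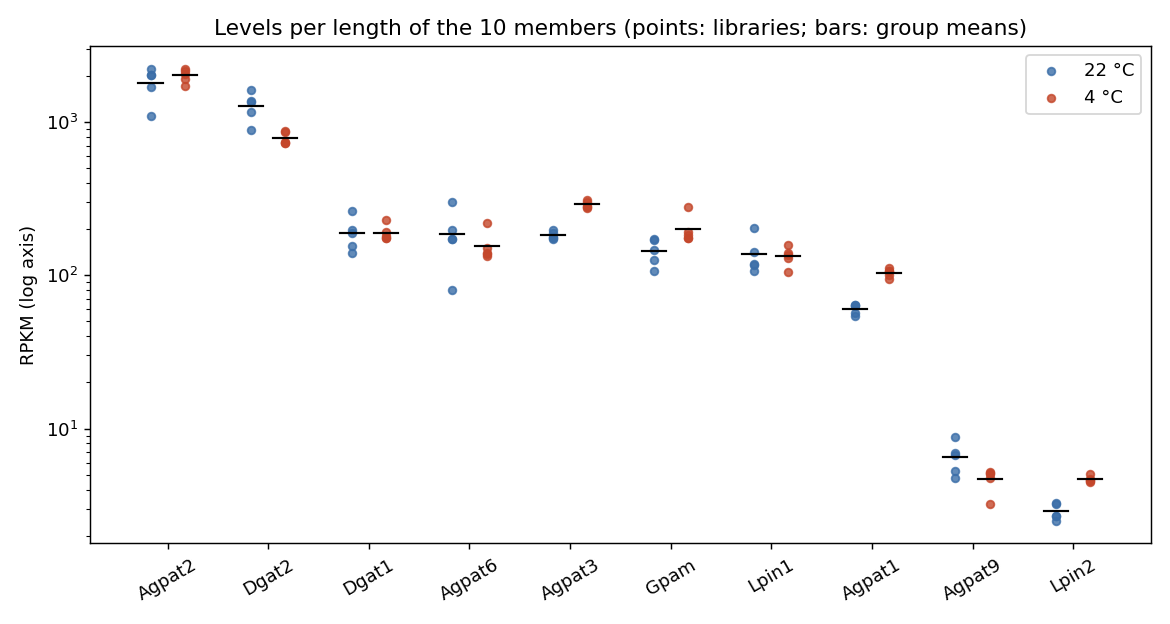
RPKM of the 10 genes on a log axis in each library at 22 °C (blue) and 4 °C (red), ordered by the control mean, with group means as bars. Agpat2 and Dgat2 lie well above the others and Agpat9 and Lpin2 under 10 RPKM.

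Variation among mice of one group was larger in control than in cold libraries for 9 of the 10 genes, Gpam being the exception, and for 66.7% of all tested genes. The median coefficient of variation of the 10 genes was 22.8% in control and 10.9% in cold libraries, against 16.7% and 12.6% over all tested genes. Among controls, replicate 1 was lowest and replicate 2 highest for Agpat6, Dgat1 and Dgat2. On the log2 scale they deviated from the control mean by -1.08 and 0.83 for Agpat6, by -0.40 and 0.51 for Dgat1 and by -0.50 and 0.38 for Dgat2. For Agpat2 and Lpin1 the order was the reverse, with replicate 1 highest and replicate 2 lowest, at 0.35 and -0.69 for Agpat2 and 0.60 and -0.32 for Lpin1. Agpat1 deviated by -0.16 to 0.09 and Agpat3 by -0.08 to 0.12 in control libraries.

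**Figure D5:**
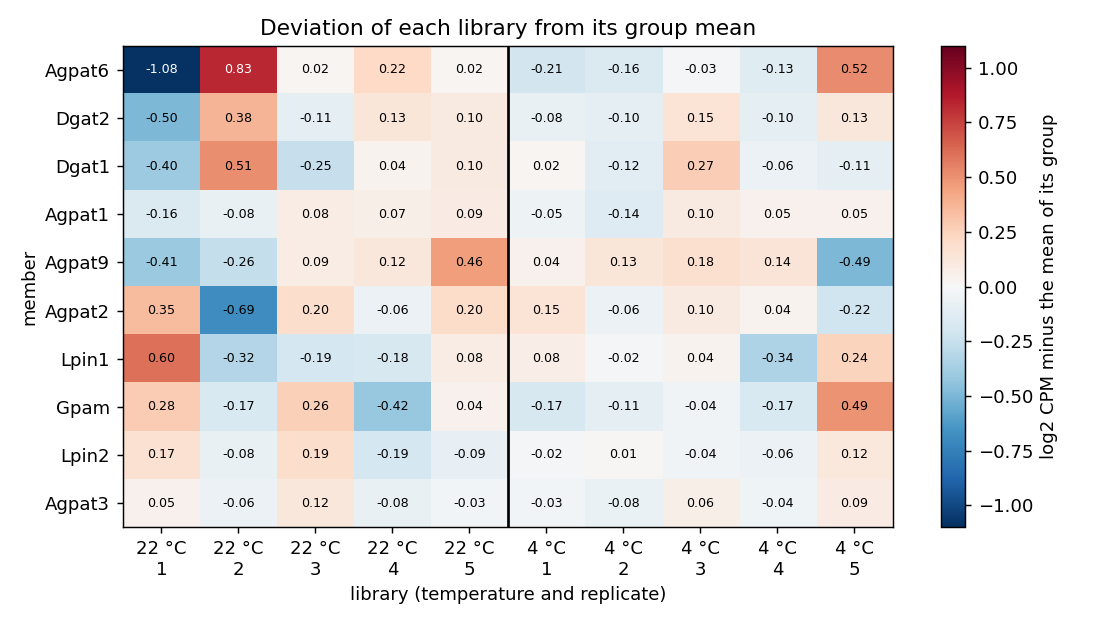
Log2 CPM of each gene in each library minus the mean of its group, with genes as rows and libraries as columns, red above and blue below the group mean. Control replicates 1 and 2 are the opposite extremes of the controls for Agpat6, Dgat2, Dgat1, Agpat2 and Lpin1. They also have opposite signs, with smaller deviations, for Gpam, Lpin2 and Agpat3. Cold replicate 5 is above its group for Gpam (0.49) and Agpat6 (0.52) and below it for Agpat9 (-0.49).

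The genes whose levels followed a member most closely were taken by Pearson's r of log2 CPM over the 10 libraries after each group's mean was removed, among 8898 genes. These values describe likeness only, over libraries that all genes share. Gpam was most like Flywch1 (r = 0.992) and Arhgef12 (0.963), Agpat6 like Tgoln1 (0.975) and Dcaf11 (0.973), and Agpat9 like Sema4b (0.943) and P4hb (0.923). Agpat1 was most like Adck2 (0.946) and Clta (0.924), Agpat2 like Slc10a7 (0.988) and Lyrm7 (0.969), and Agpat3 like Eif4ebp2 (0.967) and Hipk2 (0.937). Lpin1 was most like Prpf19 (0.982) and Psmc2 (0.972), Lpin2 like Trip11 (0.976) and Hmbox1 (0.954), Dgat1 like Gpt (0.954) and Pla2g12a (0.952), and Dgat2 like Slc27a2 (0.991) and Apoc1 (0.961).

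The counts of called genes in the lists that follow stand beside 10.2% higher and 9.16% lower over all tested genes, and with 5 to 12 tested genes a list they single out no list. Of 11 related acyltransferases and lipins, not all of which act in the steps described above, 6 were tested. Of these 1 rose and 0 fell, with a median log2 fold change of 0.20. Agpat5, an AGPAT relative, rose from 29.0 ± 1.94 to 43.7 ± 4.75 CPM (log2 fold change 0.59, SE 0.10, adjusted p = 0.00133), and its cold libraries lay above all controls. Agpat4 was at 1.59 ± 0.564 and 2.53 ± 0.871 CPM (0.66, adjusted p = 0.17). Mogat1, a monoacylglycerol acyltransferase, was at 15.8 ± 4.66 and 12.1 ± 2.30 CPM (-0.37, adjusted p = 0.25). Leaving out control replicate 2 brought it to -0.55 (adjusted p = 0.0198). Lpin3, the remaining lipin, was at 1.86 ± 0.495 RPKM in control and 2.20 ± 0.585 RPKM in cold libraries (SD, n = 5 each), and Gpat2 had 0 to 3 counts per library.

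The supply of glycerol 3-phosphate, the acceptor of the first acylation, had 2 of 9 tested genes higher and 1 lower (median 0.13). Gpd1, the cytosolic glycerol-3-phosphate dehydrogenase, rose from 13807 ± 1188 to 21861 ± 3555 CPM (log2 fold change 0.66, SE 0.11, adjusted p = 0.00166), and Gyk, glycerol kinase, rose by 1.05. Gpd1l, a relative of Gpd1, fell by 0.36 (adjusted p = 0.0119). Pck1, whose enzyme acts in making new glycerol 3-phosphate, was at -0.36 (adjusted p = 0.254). Of the fits that left out 1 library, the one without control replicate 1 called it (-0.54, adjusted p = 0.00544).

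Among 12 tested lipid phosphate phosphatases and diacylglycerol kinases, which remove or restore the phosphate of phosphatidic acid by other routes, 1 rose and 1 fell (median 0.07). Ppap2a, a lipid phosphate phosphatase, rose from 35.7 ± 3.73 to 62.8 ± 3.51 CPM (log2 fold change 0.81, SE 0.09, adjusted p = 7.21e-05). Dgkd, a diacylglycerol kinase, was at -0.33 (adjusted p = 0.0397). Leaving out 1 library ended this call in 8 of 10 cases (adjusted p of up to 0.0976), and it held without control replicate 1 or cold replicate 5. Ppap2c, another such phosphatase, was at 0.46 (adjusted p = 0.0647). It passed without control replicate 2 (0.53, adjusted p = 0.0407) or cold replicate 5 (0.52, adjusted p = 0.0388), and Ppapdc2, at 0.26 (adjusted p = 0.0673) with all libraries, passed without control replicate 1 (0.30, adjusted p = 0.037).

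Phospholipid branches draw on the same intermediates. Of 7 tested genes of the CDP-diacylglycerol branch, which starts from phosphatidic acid, 2 rose and 0 fell (median 0.11). Pgs1, the phosphatidylglycerophosphate synthase, rose by 0.67 (SE 0.09, adjusted p = 0.000297) and Cds1, a CDP-diacylglycerol synthase, by 0.51 (SE 0.10, adjusted p = 0.00496). Tamm41, of the same branch in mitochondria, was at 0.31 (adjusted p = 0.119). Of 12 tested genes of phosphatidylcholine, phosphatidylethanolamine and phosphatidylserine synthesis, 2 rose and 0 fell (median 0.13). Ptdss2, a phosphatidylserine synthase, rose from 98.8 ± 6.67 to 186 ± 9.52 CPM (log2 fold change 0.91, SE 0.07, adjusted p = 1.11e-05). Pisd, the phosphatidylserine decarboxylase, was at 0.30 (adjusted p = 0.0262), a call lost without control replicate 4 or 5 or cold replicate 1, 2 or 4 (adjusted p of up to 0.0617). Ept1, an ethanolamine phosphotransferase, was at 0.38 (adjusted p = 0.112) and passed without control replicate 2 (0.57, adjusted p = 0.00126).

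Of 5 tested lysophospholipid acyltransferases, 1 rose and 1 fell (median 0.02). Lpgat1, a lysophosphatidylglycerol acyltransferase, rose from 108 ± 15.1 to 202 ± 14.5 CPM (log2 fold change 0.90, SE 0.10, adjusted p = 7.50e-05). Taz, the cardiolipin transacylase tafazzin, fell by 0.33 (adjusted p = 0.0123), and Mboat7 was at 0.25 (adjusted p = 0.186). Of 12 tested genes of the lipin phosphatase complex, droplet assembly and regulators, 0 rose and 1 fell (median -0.04). Cebpa, an adipocyte transcription factor, fell from 991 ± 279 to 531 ± 55.0 CPM (log2 fold change -0.90, SE 0.17, adjusted p = 0.00286). Cnep1r1, a subunit of the phosphatase that activates lipins, was at -0.23 (adjusted p = 0.0747). Srebf1, a regulator of lipid synthesis genes, was at -0.52 (adjusted p = 0.167). Leaving out control replicate 2 brought Srebf1 to -0.73 (adjusted p = 0.00154). Ppargc1a, a coactivator that works with lipin 1, was at -0.20 (SE 0.58, adjusted p = 0.836), with a highest control value of 991 CPM against a control mean of 302 CPM. Its sign turned when control replicate 2 was left out (1.02, adjusted p = 0.0159).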

How the data were processed

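RNA of interscapular brown adipose tissue from 10 mice was sequenced after poly-A selection, 5 mice per group, per the labels' protocols. The deposited table holds raw counts per RefSeq gene model and library, per the file headers and values. The submitters' processing notes name STAR, edgeR and mm9. For versions, read counter and strand setting, nothing is stated in the sources used here, so reads of overlapping genes could not be told apart. A second deposited table holds, for every gene the authors tested, a log2 fold change, log2 CPM and raw and adjusted p-value, as its file header names them. Control columns carry no group word and were matched by replicate number. The cold samples' treatment tag reads as room temperature beside 4 °C; titles and protocol place them in the cold group.

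Cold was compared with control by edgeR's quasi-likelihood test (edgeR 4.0.16, R 4.3.3; TMM, filterByExpr, no covariate), two-sided, with Benjamini-Hochberg adjustment across the 11229 genes that passed. SE is the size of the log2 fold change divided by the square root of F. RPKM used the counted bases of each model; pair ratios used a prior count of 0.5. Library totals were 4446163 to 6923932 counts. Replicate pairs of a group differed by more than sampling noise (chi-square per degree of freedom 3.2 to 36.1). The test was tested on simulated data. Alternatives were other scalings and filters, DESeq2 1.42.0, limma-voom (limma 3.58.1), a replicate block and left-out libraries.

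The 10 genes and all lists were chosen with earlier results of these data known. Named are the 10 genes, up to 3 genes of smallest p per pathway list, 2 genes most like each member, and genes whose call changed without a single library. The latter, Lpin3, Gpat2 and Egfl8 were chosen after their values were seen. Coordinates of counted genes are mm9; promoter windows are GRCm38.p6.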

Additional observations from a re-analysis of the deposited data

Results flagged for a closer look

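Of 32 groups of 5 values examined (the CPM of 10 genes and the log2 ratio of 6 pairs, in control and in cold libraries), 4 held a value whose gap to its nearest neighbour exceeded Dixon's critical share of the range. All 4 came from cold replicate 5, the library that also stood apart on the second principal component. Chance would mark about 1 group in 20 if the groups were independent. They share libraries, and the ratios are built from the same genes, so the 4 are not separate departures. Gpam was at 1071 CPM there against 674 to 739 CPM in the other cold libraries, and Agpat6 at 867 CPM against 524 to 593 CPM. Agpat9 was at 9.33 CPM against 13.7 to 15.1 CPM, and the log2 ratio of Agpat9 to Agpat6 was at -6.52 against -5.29 to -5.21. Without cold replicate 5 the log2 fold change was 0.33 for Gpam (edgeR adjusted p = 0.0877), -0.41 for Agpat6 (adjusted p = 0.297) and -0.38 for Agpat9 (adjusted p = 0.128).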

How the results depend on the processing

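Over 20 alternatives for each of the 10 genes, 176 of 200 values kept their direction and their side of the threshold. Agpat1, Agpat3, Lpin2 and Dgat2 did so in all 20, at 0.74 to 0.81, 0.63 to 0.70, 0.64 to 0.74 and -0.81 to -0.60. Gpam was called in 9 of 20 (0.29 to 0.55), and was not with library sizes without the 20 most abundant genes, with the CPM filter, or without both control replicate 2 and cold replicate 5. Agpat9 was not called in 18. Dgat1 turned positive without scaling factors (0.029), with the replicate block (0.025), with limma-voom (0.025), without control replicate 2 (0.14) or 5 (0.011), without cold replicate 2 (0.028), 4 (0.016) or 5 (0.021), and without both control replicate 2 and cold replicate 5 (0.17); its lowest value was -0.097, without control replicate 1. Lpin1 turned positive without control replicate 1 (0.14) or cold replicate 4 (0.039), and was lowest, at -0.18, without both control replicate 2 and cold replicate 5. With 1 library left out, 3 to 4 of the 10 genes were called higher and 1 to 2 lower.

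Replicate numbers are not said to pair the mice. Deviations of same-numbered libraries correlated at -0.25 to 0.19, which cannot show whether the numbers pair them. With the replicate block 4 genes were higher and 1 lower, as without it, and 981 and 808 of all tested genes rose and fell against 1142 and 1029. Sign flips of the 5 numbered pairs cannot give a p under 0.0625, so Lpin1/Lpin2 (-0.71) and Dgat2/Dgat1 (-0.70) both had an adjusted exact p of 0.188 with the block. Without both control replicate 2 and cold replicate 5 they were at -0.80 and -0.79 (adjusted exact p = 0.0571 each). With 4 libraries a group the smallest exact p is 0.0286 before adjustment, and both ratios were at it. Missing the threshold there was a limit of the design. With 1 library left out the log2 ratio differences lay between -0.80 and -0.60 for Lpin1/Lpin2, -0.76 and -0.66 for Dgat2/Dgat1, 0.38 and 0.97 for Gpam/Agpat6, and -0.74 and -0.46 for Agpat2/Agpat1. In the order of levels per length, 7 (control) and 4 (cold) genes kept their rank with the whole gene span as length, and 7 to 8 and 8 to 8 did with 1 library left out. Agpat9 and Lpin2 rest on 50 to 180 counts per library. The SE did not follow the counts: it was 0.11 for Lpin2 (74 to 180 counts) and 0.26 for Agpat6 (1400 to 6080 counts).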
